A study of Homo sapiens with 12 samples.

Results

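The comparison described here set serum-starved HCT116 cells carrying a knockout of KDM3A (KO) against serum-starved wild-type cells (WT). HCT116 is an established human colorectal carcinoma line. Genes entered the comparison where their FPKM (fragments divided by transcript length and by the mapped fragments of the library) was 1 or more in either column, which kept 12743 of 26372 gene symbols. For each gene the log2 ratio of (FPKM + 1), KO over WT, was taken, and genes at least 2-fold apart on that scale were counted.

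The series holds 6 groups, WT and KO each in mock culture (the labels' normal state), in starvation without serum, and after fetal bovine serum (FBS) was added back following 24 h without serum, called refed below. Per the labels, polyadenylated RNA was selected with oligo-dT beads from total RNA, and all groups share this step. The labels list 2 samples in each group, but each group has 1 deposited column that names no replicate. Every value below is therefore 1 value per group with no spread between replicates, no test was possible, and "higher" and "lower" describe these columns only. The labels do not say how the knockout was made, whether it is 1 clone, or for how long the cells of the starved groups went without serum, and the read depth is unknown.

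KDM3A, also called JMJD1A or JHDM2A, is a Jumonji-family enzyme that removes methyl groups from lysine 9 of histone H3, a mark placed on silent chromatin by enzymes such as EHMT2 (G9a) and SETDB1 and read by HP1 proteins. Its loss is studied for genes that stay silent when the mark is not removed. Serum supplies growth factors, lipids and lysophospholipids, so that cells kept without it reduce signalling to immediate early genes and to the Hippo pathway effector YAP, and raise sterol synthesis through SREBP factors.

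KDM3A was at 17.8 FPKM in WT starved cells and 3.01 FPKM in KO starved cells, or 17.0% of the WT level. It was at 41.3 and 19.8 FPKM in mock and refed WT cells and at 3.15 and 3.59 FPKM in the matching KO cells, so that the KO columns were the 3 lowest. The transcript was lower in KO but not absent, and FPKM over a whole gene does not show which exons the remaining reads came from. The log2 ratios of (FPKM + 1) of compared genes near it on the chromosome were, in starved cells, 0.08 for IMMT, 0.52 for MRPL35, 0.76 for REEP1 and 0.28 for CHMP3. None of the 9 other H3K9 demethylases compared was 2-fold apart. Their median log2 ratio was 0.12, and KDM3B, the closest relative of KDM3A, was at 10.7 FPKM in WT and 10.8 FPKM in KO. Of the 11 H3K9 methyltransferase and HP1 genes none was 2-fold apart either, with log2 ratios from -0.14 to 0.47.

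Across all genes compared, 348 were at least 2-fold higher in KO (2.73%) and 196 were at least 2-fold lower (1.54%), together 544 (4.27%). At 4-fold the counts were 63 and 64. Leaving out the short RNA features described below, lower genes made up 1.67% of the 1795 genes with a mean of under 2 FPKM and 0.498% of the 602 genes at 100 FPKM or more, while higher genes made up 2.34% and 2.66%. The deposited values were shifted towards KO, with a median log2 ratio of 0.20 (a 1.15-fold difference of FPKM + 1) and 78.8% of genes above 0. After rescaling the columns by the median of gene ratios, 265 genes were 2-fold higher (2.07%) and 256 lower (2.0%) of 12780 compared. Counts below are on the deposited scale unless said otherwise, and the median of a gene list is read against that of all genes. Where only 1 column of a gene reached 1 FPKM, the filter fixed its direction, also where this is not repeated below.

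Short RNA features (small nucleolar and small nuclear RNA, microRNA and the like) made up 66 of the 348 higher and 70 of the 196 lower features. Their share of the summed FPKM was 16.5% in WT starved and 6.82% in KO starved cells. It was largest in WT mock cells, at 54.6%, and was 5.68% to 7.63% in the other 3 columns. In a few RNAs without a poly(A) tail the WT starved column was the highest of the 6. RN7SK, the RNA that holds the elongation factor P-TEFb inactive, was at 10863 FPKM in WT starved, 1479 FPKM in WT refed and 16.8 to 19.3 FPKM in the other 4 columns. RN7SL1, the RNA of the signal recognition particle, was at 7886 FPKM in WT starved and 124 FPKM in KO starved. MIR1281 was listed at 43906 FPKM in WT starved and at 0 in the other 5 columns. FPKM divides by length and is unstable for a hairpin as short as that of MIR1281, shown here to give its size (54 bases in RefSeq, GRCh38.p14, chr22:41092513-41092566, plus strand).
MIR1281: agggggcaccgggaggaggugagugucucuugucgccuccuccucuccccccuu
The WT starved column listed 4300 symbols at 0 and the KO starved column 7113. WT refed cells, with 4301, were close to WT starved, while WT mock cells had 6401 and the other KO columns 7075 and 7312. Of the 3149 symbols at 0 in KO and above 0 in WT, 3098 were under 1 FPKM, and the opposite case held 336. The part of these differences between columns in the gene differences below was not tested. With short RNA features left out, 282 of 12461 genes were 2-fold higher (2.26%) and 126 were 2-fold lower (1.01%). The 13 histone genes compared, many of which make transcripts without a poly(A) tail, had a median 0.04 below that of all genes, and only HIST1H4C, at 1.06, was 2-fold apart.

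**Figure D1:**
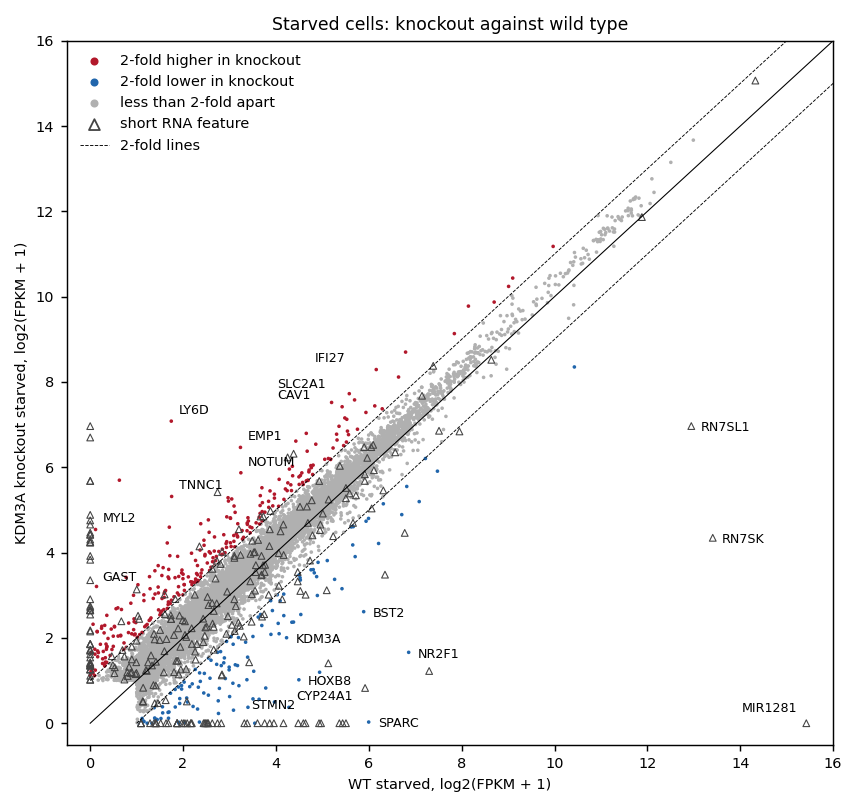
Each point is a gene, with log2(FPKM + 1) in WT starved cells on the x axis and in KO starved cells on the y axis. Red points are at least 2-fold higher and blue points at least 2-fold lower in KO, and open triangles are short RNA features. SPARC and NR2F1 lie far below the diagonal, LY6D and EMP1 far above it, and RN7SK, RN7SL1 and MIR1281 are short or non-polyadenylated RNAs high in WT.

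Markers were read against the labelled cell type. EPCAM (150.1 FPKM in WT, 189 FPKM in KO), KRT8 (1002 and 2316 FPKM), KRT18, KRT19, CDH1 and the intestinal factor CDX2 (8.60 and 9.24 FPKM) were at 1 FPKM or more in both starved columns. The other 5 of 11 colon epithelial markers, KRT20, CDX1, VIL1, LGR5 and CEACAM5, were under 1 FPKM in both. None of 6 leukocyte markers reached 1 FPKM in either column, and of 8 fibroblast markers only COL1A1 did (19.9 and 26.7 FPKM). Of 12 endothelial markers EGFL7 and ESAM did. PECAM1, CDH5 and VWF, which define that cell type, were at 0.0638, 0.0311 and 0.0899 FPKM in WT and at 0.0773, 0 and 0.159 FPKM in KO. In WT mock cells all 12 reached 1 FPKM, and their summed level was 277 FPKM against 57.4 in WT starved and 68.9 in KO starved.

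The genes furthest above WT included surface and secreted proteins of stratified epithelium together with a pair of striated muscle genes. LY6D, a GPI-anchored surface protein of keratinocytes and early B lineage cells, was at 2.35 FPKM in WT starved and 134 FPKM in KO starved cells, a log2 ratio of 5.34. Its other WT columns were at 1.30 and 1.95 FPKM and its other KO columns at 137 and 194 FPKM, so that the genotypes did not overlap. EMP1, an epithelial membrane protein, was at 8.42 FPKM in WT and 87.4 FPKM in KO (3.23). The WT level of EMP1 was lower in starved cells than in mock (21.7 FPKM) or refed cells (22.4 FPKM), as was the KO level (136 and 177 FPKM in mock and refed). The serine protease KLK5, which acts in the shedding of skin cells, was at 0.709 and 9.70 FPKM (2.65), and GRHL3, a transcription factor of the epidermal barrier, at 1.76 and 11.9 FPKM (2.23).

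MYL2 and TNNC1, a myosin light chain and a troponin of slow and cardiac muscle, were among the 4 largest differences. MYL2 was at 0.0831 FPKM in WT and 22.3 FPKM in KO (4.43), and TNNC1 at 2.37 and 38.8 FPKM (3.56). Of the 7 contractile genes of striated muscle that were compared, these were the only members 2-fold apart, and 13 of the 20 listed did not reach 1 FPKM in either column. MYL2 reached 1 FPKM in KO only, so the filter fixed its direction. GAST, the gene of the stomach hormone gastrin, was at 0.0987 FPKM in WT and 8.23 FPKM in KO (3.07). The Wnt-deacylating secreted enzyme NOTUM was at 8.48 and 57.5 FPKM (2.63), the BMP-responsive homeobox gene MSX2 at 2.16 and 17.7 FPKM (2.57), and CAV1, the main coat protein of caveolae, at 35.7 and 183 FPKM (2.32). DHRS2, a short-chain dehydrogenase, was at 2.26 and 23.2 FPKM (2.89), and FGFBP1, a secreted carrier of fibroblast growth factors, at 6.83 and 38 FPKM (2.32). The zinc-finger factor KLF4 was at 4.21 and 24.6 FPKM (2.30), and CD47, the surface signal that restrains phagocytosis, at 6.88 and 36.0 FPKM (2.23). All of the genes named here were also at least 2-fold higher in KO in refed cells, and all but CAV1, whose log2 ratio was 0.84, in mock cells.

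The genes furthest below WT included a matrix protein, transcription factors of development and genes of neurons. SPARC, a collagen-binding matrix glycoprotein, was at 62.9 FPKM in WT and 0.0193 FPKM in KO, a log2 ratio of -5.97. Its 3 WT columns lay between 60.8 and 83.3 FPKM and its 3 KO columns at or under 0.0193 FPKM. The orphan nuclear receptor NR2F1 (COUP-TFI) was at 115 FPKM in WT and 2.16 FPKM in KO (-5.20). CYP24A1, the enzyme that inactivates vitamin D, was at 18.4 and 0.294 FPKM (-3.91). ARHGAP29, an inhibitor of RhoA and a YAP target, was at 29.7 and 1.29 FPKM (-3.75). STMN2, a microtubule-binding protein of neurons, was at 10.7 FPKM in WT, and its KO value was 0. GPR15, a chemokine-type receptor that guides T cells to the colon, was at 14.7 and 0.411 FPKM (-3.47), and BST2 (tetherin), which holds enveloped viruses at the cell surface, at 58.3 and 5.13 FPKM (-3.27).

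HOXB8 and HOXB4, homeobox genes of 1 cluster, were at 21.5 and 7.49 FPKM in WT and at 1.03 and 0.236 FPKM in KO. The tetraspanin TSPAN5 was at 11.4 and 0.475 FPKM (-3.08), the axon-repelling secreted protein SEMA3A at 9.54 and 0.295 FPKM (-3.02), and PPP1R1B (DARPP-32), an inhibitor of protein phosphatase 1, at 12.7 and 0.772 FPKM (-2.96). SERPINA5, an inhibitor of activated protein C, was at 10.4 and 0.485 FPKM (-2.94), the long noncoding RNA LINC00326 at 5.79 and 0.172 FPKM (-2.53), and KLRC3, of the NKG2 receptor family of natural killer cells, at 7.02 and 0.542 FPKM (-2.38). All 15 genes were at least 2-fold lower in KO in mock and refed cells too. NEUROD6, ZEB2 and ELAVL2 were listed at 0 in KO starved cells and at 2.76, 1.51 and 1.34 FPKM in WT starved cells. Their levels in WT mock and refed cells were lower, from 0.128 to 0.672 FPKM, so that these 3 genes were highest in WT starved. They were chosen for being at 1 FPKM or more in that column and at 0 in KO starved. The WT starved column also listed fewer symbols at 0, as given above, and the part of this in these values was not tested. PHGR1, a gene of the gut epithelium, was the reverse, listed at 0 in WT starved and at 1.18 FPKM in KO starved.

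**Figure D2:**
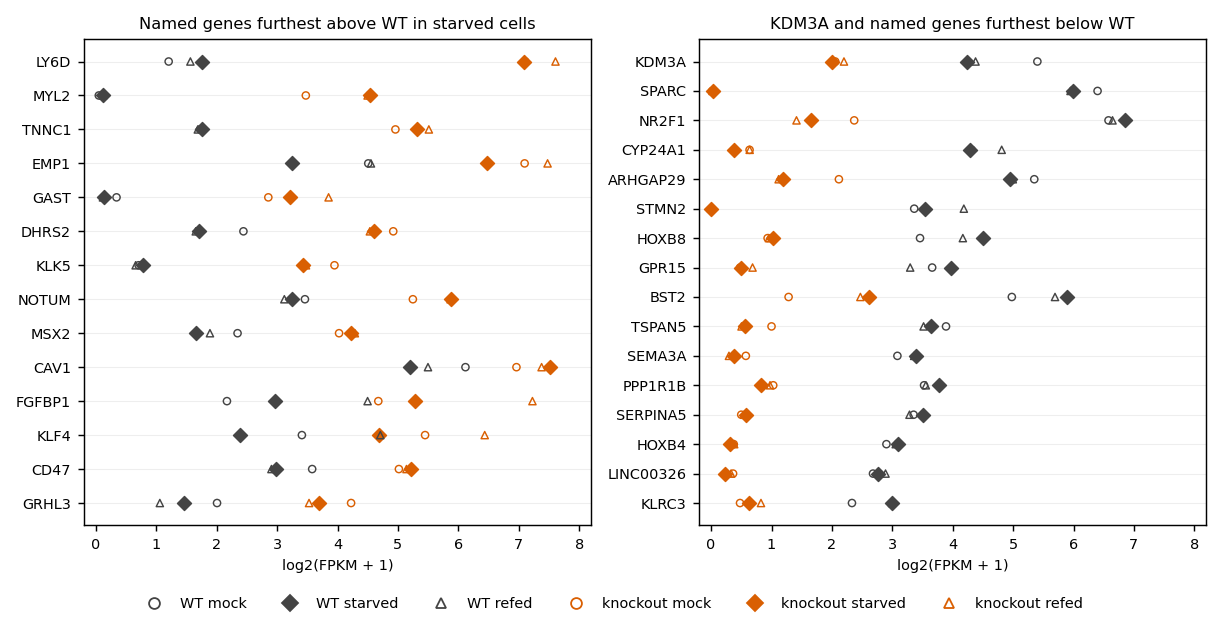
Log2(FPKM + 1) of the named genes furthest above WT (left) and of KDM3A and the 15 genes furthest below WT (right) in starved cells, with 1 point per deposited column. Filled diamonds are starved cells and open symbols mock and refed cells, grey for WT and orange for KO. Within each gene the KO columns lie on the same side of the WT columns in every culture state.

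Keratins, squamous genes and junction genes had medians above that of all genes, and intestinal genes did not. Of the 14 keratin genes compared 11 were 2-fold higher in KO, against 2.73% of all genes, and none was lower. KRT14, KRT16, KRT17 and KRT32 reached 1 FPKM in KO only, so the filter fixed their direction. KRT20, at 0.907 FPKM in WT and 0.572 FPKM in KO, did not enter the comparison. KRT10 (0.28), KRT222 (0.40) and KRT32 (0.49) were less than 2-fold apart. The 9 of them on the keratin list, which was chosen with earlier results known, were all 2-fold higher, and after median-ratio rescaling 6 were. KRT8 and KRT18, the keratin pair of simple epithelium, had log2 ratios of 1.21 and 1.17, and KRT19 was at 515 FPKM in WT and 1209 FPKM in KO (1.23). KRT15, a keratin of basal layers, was at 7.12 and 26.9 FPKM (1.78). Keratins have close paralogs and many pseudogenes, and how reads shared between them were counted is not known, so single keratin values are uncertain. Of 15 genes of squamous epithelium 5 were 2-fold higher, also after rescaling, none was lower and 14 lay above the median of all genes. The 5 higher genes were LY6D, EMP1, KLK5, KLK10 at 7.27 and 37.3 FPKM (2.21) and SFN, the 14-3-3 protein sigma, at 98.8 and 276 FPKM (1.48). KLK5 reached 1 FPKM in KO only, so the filter fixed its direction. This list too was chosen with earlier results known, and LY6D, EMP1 and KLK5 are among the genes furthest above WT given earlier. Of 21 epithelial junction genes 19 lay above the median of all genes, but only 2 were 2-fold higher, among them PKP3 (1.04), a plakophilin of desmosomes. CLDN2, a pore-forming claudin, was lower, at 1.87 and 0.0794 FPKM (-1.41). CDH1, encoding E-cadherin, was at 14 and 21.7 FPKM, a log2 ratio of 0.60. LAMB3, a laminin chain of the epithelial basement membrane, was at 12.1 and 35.0 FPKM (1.46). Of 20 genes of intestinal differentiation listed 5 were compared. Among these GAST and HNF4A, a transcription factor of the gut and liver (0.0794 and 1.37 FPKM, 1.13), were 2-fold higher. Both reached 1 FPKM in KO only, so the filter fixed their direction. Of the 5 genes 3 lay below the median of all genes, and the list median was 0.03 below it. The furthest below was CEACAM1, an adhesion molecule, at -0.65, which reached 1 FPKM in WT only. Of 19 mesenchymal and matrix genes listed 9 were compared, and the list median was 0.10 below that of all genes. Lower were 3 of the 9, SPARC, ZEB2 and VIM (1.21 FPKM in WT and 0.0351 FPKM in KO), against 1.54% of all genes. These 3 reached 1 FPKM in WT only, so the filter fixed their direction.

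The promoters of the 2-fold higher genes were searched for motifs in RefSeq windows of 250 bases before to 50 after each start (GRCh38.p14), in which 9903 of the 12743 genes had 14392 windows, some of them overlapping. The letters TGANTCA, a form of the AP-1 site bound by FOS and JUN factors, were found on either strand in 11.3% of 291 windows of 2-fold higher genes, 6.71% of 149 windows of lower genes and 5.17% of all windows. A match describes letters in a window and not binding. The windows below show the matches of 4 named genes that were higher in KO, in capitals and with 20 bases on each side, read along the gene's strand. EMP1 has a pair of them, and LAMB3, SFN and CD68, a lysosomal glycoprotein at 4.46 FPKM in WT and 18.6 FPKM in KO (1.84), have 1 each.
EMP1, chr12:13196531-13196577, plus strand: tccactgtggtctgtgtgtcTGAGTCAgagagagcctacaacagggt
EMP1, chr12:13196658-13196704, plus strand: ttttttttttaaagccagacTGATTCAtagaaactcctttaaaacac
LAMB3, chr1:209651415-209651461, minus strand: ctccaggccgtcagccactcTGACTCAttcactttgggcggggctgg
SFN, chr1:26862959-26863005, plus strand: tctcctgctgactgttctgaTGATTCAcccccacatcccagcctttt
CD68, chr17:7579518-7579564, plus strand: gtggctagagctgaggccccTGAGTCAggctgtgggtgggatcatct
Among genes of the AP-1 factors themselves, FOSL2 was at 3.54 FPKM in WT and 14.8 FPKM in KO (1.80). The others were less than 2-fold apart, with log2 ratios of -0.57 for FOS, -0.30 for FOSB, 0.10 for JUN, 0.21 for JUNB, 0.23 for JUND and 0.46 for FOSL1.

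Genes of cholesterol synthesis, the targets of SREBP2, lay above the median in KO starved cells. Of 20 enzymes 7 were 2-fold higher, where 2.73% of all genes were, and none was lower, with a median 0.69 above that of all genes. After rescaling 4 of the 20 were 2-fold higher, where 2.07% of all genes were. HMGCS1, the first committed enzyme of the mevalonate pathway, was at 19.0 FPKM in WT and 47.1 FPKM in KO (1.27). ACAT2, which makes acetoacetyl-CoA, was at 26.1 and 62.6 FPKM (1.23), and IDI1, which isomerises isopentenyl diphosphate, at 36.5 and 86.6 FPKM (1.22). PMVK (0.07) and TM7SF2 (0.05) were the only 2 members below the median of all genes. Of 12 genes of sterol sensing and uptake 2 were 2-fold higher, and 1 after rescaling, among them INSIG1, which retains SREBP in the endoplasmic reticulum (25.9 and 64.8 FPKM, 1.29). All 13 fatty acid synthesis genes lay above the median of all genes, and the acyl-CoA synthetase ACSL1 was 2-fold higher (3.96 and 10.1 FPKM, 1.17). WT levels of these genes also differed between states: HMGCS1 was at 5.93 FPKM in WT mock and 32.4 FPKM in WT refed cells, and at 14 and 71.3 FPKM in KO. Its KO column was the higher of each pair in all 3 states, with log2 ratios of 1.11 in mock and 1.11 in refed cells. The letters CCAAT, bound by NF-Y, were in 64.5% of 31 promoter windows of the 2 sterol lists and in 34.6% of all windows. The sterol element TCACNCCAC was in 1 of the 31, that of SREBF2, and in 1.06% of all windows. The lists were chosen as sterol genes, so these shares describe the lists and not the knockout. In the windows of all 2-fold higher genes the shares were 29.2% for CCAAT and 3.09% for the sterol element.

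NF-kB and chemokine genes were the list furthest below the others, together with neuronal genes. All 13 lay below the median of all genes and all 13 had a log2 ratio under 0, from -2.36 to -0.11. For LTB, CXCL2 and CXCL3 the filter fixed the sign, since only their WT column reached 1 FPKM. Only 2 were 2-fold lower, against 1.54% of all genes, and the list median was 0.71 below that of all genes. CXCL8 (interleukin-8), which attracts neutrophils, was at 9.37 FPKM in WT and 1.03 FPKM in KO (-2.36), and its receptor-sharing relative CXCL1 at 6.96 and 1.49 FPKM (-1.68). CXCL8 was at 89.8 FPKM in WT refed and 5.50 FPKM in KO refed cells, and its KO level was under the WT level in each state. LTB, which encodes lymphotoxin beta, was at 1.44 and 0.244 FPKM (-0.98), and NFKBIA, the inhibitor induced by NF-kB, at 113 and 67.2 FPKM (-0.74). In refed cells NFKBIA was at 78.8 FPKM in WT and 79.6 FPKM in KO, so that the order of the genotypes was not kept there. The genes of the factors, NFKB1 (-0.41), NFKB2 (-0.11) and RELB (-0.52), were less than 2-fold apart. CXCL1, CXCL2 and CXCL3 are close paralogs, and their counts are uncertain.

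A form of the NF-kB site, the letters GGGA and TTCC on either strand with any 2 bases between them, was in 9 of the 15 promoter windows of this list (60.0%), from 8 of 11 genes with a window, against 1.56% of all windows. The list was chosen as NF-kB targets, so a high share describes the list and not the knockout. In the windows of all 2-fold lower genes the share was 2.01%. The matches of 4 members are shown in capitals, along the strand of each gene, with 20 bases on each side.
CXCL1, chr4:73869294-73869343, plus strand: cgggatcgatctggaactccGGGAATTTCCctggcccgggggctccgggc
CXCL2, chr4:74099244-74099293, minus strand: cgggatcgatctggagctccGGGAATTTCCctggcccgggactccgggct
CXCL3, chr4:74038739-74038788, minus strand: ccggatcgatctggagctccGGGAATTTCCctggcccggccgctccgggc
NFKBIA, chr14:35404801-35404850, minus strand: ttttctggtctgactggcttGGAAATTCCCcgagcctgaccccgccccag
The 3 CXCL windows carry the same 10 letters, and the NFKBIA match is on the opposite strand to the gene. Among these 4 genes the log2 ratios were -1.68, -0.49, -0.38 and -0.74.

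Interferon-stimulated genes lay on both sides. Of 25 compared 5 were 2-fold higher and 2 were 2-fold lower, where 2.73% and 1.54% of all genes were, with a median 0.17 above that of all genes. After rescaling 3 were higher and 3 lower. IFI27 was at 70.5 FPKM in WT and 312 FPKM in KO (2.13), IFI6 at 282 and 877 FPKM (1.63), and ISG15, a ubiquitin-like modifier, at 547 and 1384 FPKM (1.34). BST2 was far lower in KO, as given above, and IFITM1, a restriction factor at the cell membrane, was at 73.1 and 17.6 FPKM (-2.0). Its neighbours in the family IFITM2 and IFITM3 had log2 ratios of -0.39 and 0.50. Of 13 MHC class I presentation genes none was 2-fold apart.

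Feedback inhibitors of Wnt and BMP signalling were among the higher genes. Of 13 Wnt targets 4 were 2-fold higher and none lower, where 2.73% and 1.54% of all genes were. After rescaling 3 were higher, since AXIN2 was then less than 2-fold apart. Beside NOTUM these were the ubiquitin ligase ZNRF3, which removes Wnt receptors (2.2 and 9.76 FPKM, 1.75), the secreted inhibitor DKK1 (229 and 561 FPKM, 1.29) and AXIN2, a scaffold of beta-catenin destruction (3.97 and 8.98 FPKM, 1.01). RNF43, a partner of ZNRF3, was at 6.33 and 5.52 FPKM (-0.17). Of 12 genes of the BMP and TGF-beta response 4 were 2-fold higher, also after rescaling, and the list median was 0.49 above that of all genes. SMAD7 and SMAD6, the inhibitory SMADs, were at 1.97 and 11.5 FPKM (2.08) and at 4.15 and 15.7 FPKM (1.69). ID2, an inhibitor of helix-loop-helix factors, was at 45.1 and 138.6 FPKM (1.6), and the pseudoreceptor BAMBI at 4.55 and 14.5 FPKM (1.48).

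Of 20 YAP/TEAD targets 3 were 2-fold higher and 1 was lower, where 4.27% of all genes were 2-fold apart, and the list median was 0.09 above that of all genes. After rescaling 1 was higher and 2 were lower. CTGF, a matricellular protein and standard YAP target, was at 1.24 FPKM in WT starved and 1.2 FPKM in KO starved cells (-0.03). In mock and refed cells it was at 62.3 and 64.0 FPKM in WT and at 1.34 and 5.09 FPKM in KO, so that the KO column was far below the WT column there and level with it in starved cells. CYR61 was at 7.66 FPKM in WT starved and 16.6 FPKM in KO starved cells (1.02). In mock and refed cells the order was the reverse, 27.8 and 444 FPKM in WT and 14.7 and 309 FPKM in KO. Endothelial markers were high in WT mock, as given above, and the part of that in the mock values of CTGF and CYR61 was not tested. AMOTL2, an angiomotin that binds YAP, was at 2.94 and 11 FPKM (1.61), and AREG, an EGF receptor ligand, at 44.8 and 95.4 FPKM (1.07). Among 20 genes of the YAP and Hippo pathway itself, WWTR1 (TAZ) was at 11.3 and 4.61 FPKM (-1.13) and no other was 2-fold apart. Of 22 immediate early genes KLF4, FOSL2 and NR4A1 (9.42 and 24.9 FPKM, 1.31) were higher and EGR1 (26.9 and 11.1 FPKM, -1.20) was lower, and the list median was 0.05 below that of all genes. Of 14 genes of ERK feedback and output the receptor tyrosine kinase inhibitor SPRY4 was lower, at 27.4 and 10.5 FPKM (-1.30). None of 16 actin and SRF targets was 2-fold apart.

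None of 26 DNA replication genes and none of 22 mitotic genes was 2-fold apart. All 22 mitotic genes lay above the median of all genes, with log2 ratios from 0.21 to 0.82 and a list median 0.37 above it. Of 18 G1 regulators the CDK inhibitors CDKN1C (6.65 and 16.4 FPKM, 1.19) and CDKN2B (2.36 and 6.38 FPKM, 1.14) were 2-fold higher. Of 20 p53 targets GDF15, a stress-induced cytokine (135 and 35.6 FPKM, -1.89), and BAX, a pore-forming killer of the BCL2 family (78.5 and 34.4 FPKM, -1.17), were lower and SFN was higher. BIK, another killer of the BCL2 family, was at 23.0 and 47.4 FPKM (1.01). TNFRSF6B, a decoy receptor for the death ligand FASLG, was at 104 and 28.7 FPKM (-1.82), and TNFRSF12A, the receptor of TWEAK, at 60.3 and 155 FPKM (1.35). After median-ratio rescaling CDKN2B (0.99) and BIK (0.82) were less than 2-fold higher. Among all genes compared 2.73% were 2-fold higher and 1.54% were 2-fold lower.

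In metabolism, the glucose transporter SLC2A1 (GLUT1) was at 46.8 FPKM in WT and 211 FPKM in KO (2.15) and was the only member of 22 glycolysis genes 2-fold apart. Its other WT columns were at 84.4 and 48.4 FPKM and its other KO columns at 317 and 276 FPKM. KDM3A is itself a known target of hypoxia. Of 20 hypoxia targets compared, CA9, a carbonic anhydrase at the cell surface, was at 4.98 and 1.08 FPKM (-1.53), and P4HA1, a collagen prolyl hydroxylase subunit, at 32.2 and 71.9 FPKM (1.14). HMOX1, the haem-degrading enzyme, was the only member of 13 NRF2 targets 2-fold apart (9.45 and 24.3 FPKM, 1.28). None of 17 ATF4 targets, 12 stress chaperones and 18 ribosome biogenesis genes was 2-fold apart. IRS1 and IRS2, adaptors of the insulin receptor, differed in opposite directions, at 17.0 and 4.75 FPKM (-1.65) and at 2.30 and 6.0 FPKM (1.08). The fibrinolytic protease PLAT was at 7.56 and 33.1 FPKM (1.99), and the metalloproteinase inhibitor TIMP3 at 0.185 and 3.68 FPKM (1.98). Of 10 xenobiotic genes CYP24A1 and the exporter ABCC3 (49.8 and 23.4 FPKM, -1.06) were lower. Among 20 nuclear receptors NR2F1 and NR5A2 (3.97 and 0.259 FPKM, -1.98) were lower and PPARD (9.87 and 23.3 FPKM, 1.16) was higher. Of 20 neuronal genes listed 7 were compared. Among these STMN2 and GAP43 (3.10 and 0.00938 FPKM, -2.02) were lower, and the list median was 0.71 below that of all genes. STMN2, GAP43, CYP24A1 and NR5A2 reached 1 FPKM in WT only, and TIMP3 in KO only, so the filter fixed their direction. After median-ratio rescaling P4HA1 (0.95), IRS2 (0.94) and PPARD (0.98) were less than 2-fold higher. For the lists of this paragraph the shares to read against are 2.73% of all genes higher and 1.54% lower.

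Large gene families were mostly within 2-fold. Of 295 genes named as zinc fingers 9 were higher and none was lower, a share near the 2.73% of all genes, with ZNF266 (0.834 and 6.03 FPKM, 1.94) and ZNF134 (0.231 and 3.34 FPKM, 1.82) furthest apart. None of 77 cytosolic ribosomal protein genes, 37 NADH dehydrogenase subunits, 36 proteasome subunits and 12 tubulins was 2-fold apart. The ribosomal protein genes had a median 0.20 above that of all genes. Of 76 mitochondrial ribosomal protein genes MRPS6 alone was 2-fold apart (43.7 and 142 FPKM, 1.67). Of 184 solute carriers 6 were higher and 1 lower. Of 12 S100 proteins S100P (0.267 and 2.62 FPKM, 1.51) and S100A10 (53 and 118 FPKM, 1.14) were higher. All 4 metallothioneins compared lay below the median of all genes, with MT1X furthest, at 77.9 and 38.6 FPKM (-0.99).

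**Figure D3:**
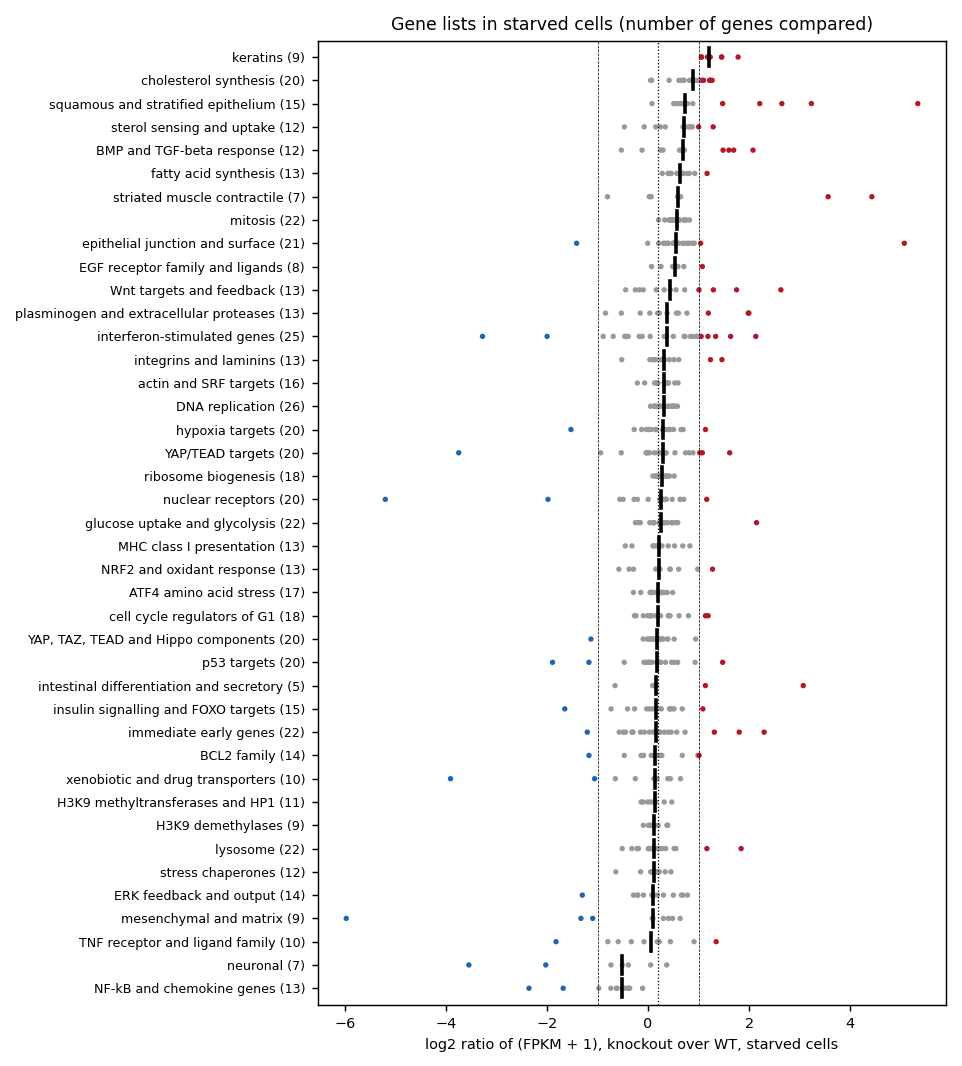
Each row is a gene list with the number of genes compared in brackets, and each dot is a gene at its log2 ratio of (FPKM + 1), KO over WT, in starved cells. Black bars are list medians, the dotted line is the median of all genes (0.20) and dashed lines mark 2-fold. Keratins and cholesterol synthesis have the highest medians and NF-kB and neuronal genes the lowest.

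Some of the genes that were apart lie next to each other in the chromosomal order of compared genes. That order skips genes under 1 FPKM in both columns, so members of a run need not be adjacent in the genome. The number of runs to be expected from the order alone was not tested. The order of genes was taken by symbol from the RefSeq gene table of GRCh38.p14, a later build than the hg19 of the files, in which 12217 of 12405 genes with a usable symbol were found. Runs of neighbouring compared genes that were all 2-fold apart in 1 direction numbered 18 among higher genes, holding 47 of 277 placed higher genes, and 7 among lower genes, holding 19 of 119. The longest lower run was in the HOXB cluster and held HOXB3 (-1.74), HOXB4 (-2.78), the antisense gene HOXB-AS3 (-1.47), HOXB5 (-1.98) and HOXB6 (-1.71). Past it HOXB7 was at 34.3 and 27.5 FPKM (-0.31), HOXB8 was again far lower (-3.48) and HOXB9 was at 7.94 and 4.46 FPKM (-0.71). None of the 7 HOXA genes compared, 5 HOXC genes and 1 HOXD gene was 2-fold apart, and the HOXA log2 ratios lay between -0.18 and 0.47. HOX proteins set position along the body axis, and in the colon HOXB genes are expressed by epithelial cells.

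The other lower run of 3 or more held the lectin receptor genes KLRK1 (10.5 and 1.33 FPKM, -2.30), KLRC4 (-1.6), KLRC3 (-2.38) and KLRC2 (-1.97), which encode NKG2 receptors of natural killer cells and overlap or resemble each other closely, so that single values are uncertain. KLRC4, KLRC3 and KLRC2 reached 1 FPKM in WT only, so the filter fixed their direction. Of 11 genes of the KLR family in the data only these 4 were compared. Leukocyte markers were under 1 FPKM in both columns, as given above. Higher runs held keratins of type I (KRT13, KRT15, KRT19, KRT14, KRT16 and KRT17, log2 ratios from 1.06 to 1.78) and of type II with KRT18 (KRT80, KRT7, KRT8 and KRT18, from 1.17 to 1.46). Of the type I run, KRT14, KRT16 and KRT17 reached 1 FPKM in KO only, as given above. Another higher run held TES, CAV2 and CAV1 (1.67, 1.82 and 2.32). CD47 formed a run with IFT57 (1.26) and MYH15 (1.56). Pairs included MYL2 and LINC01405 (2.28 and 14.2 FPKM, 2.21), KLK10 and KLK11, and, among lower genes, CXCL8 and CXCL1, SERPINA5 and SERPINA3, and NR2F1 and its antisense gene NR2F1-AS1 (7.72 and 1.58 FPKM, -1.76). Whether the counting used strand is not stated, so reads of a gene and its antisense partner cannot be told apart.

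**Figure D4:**
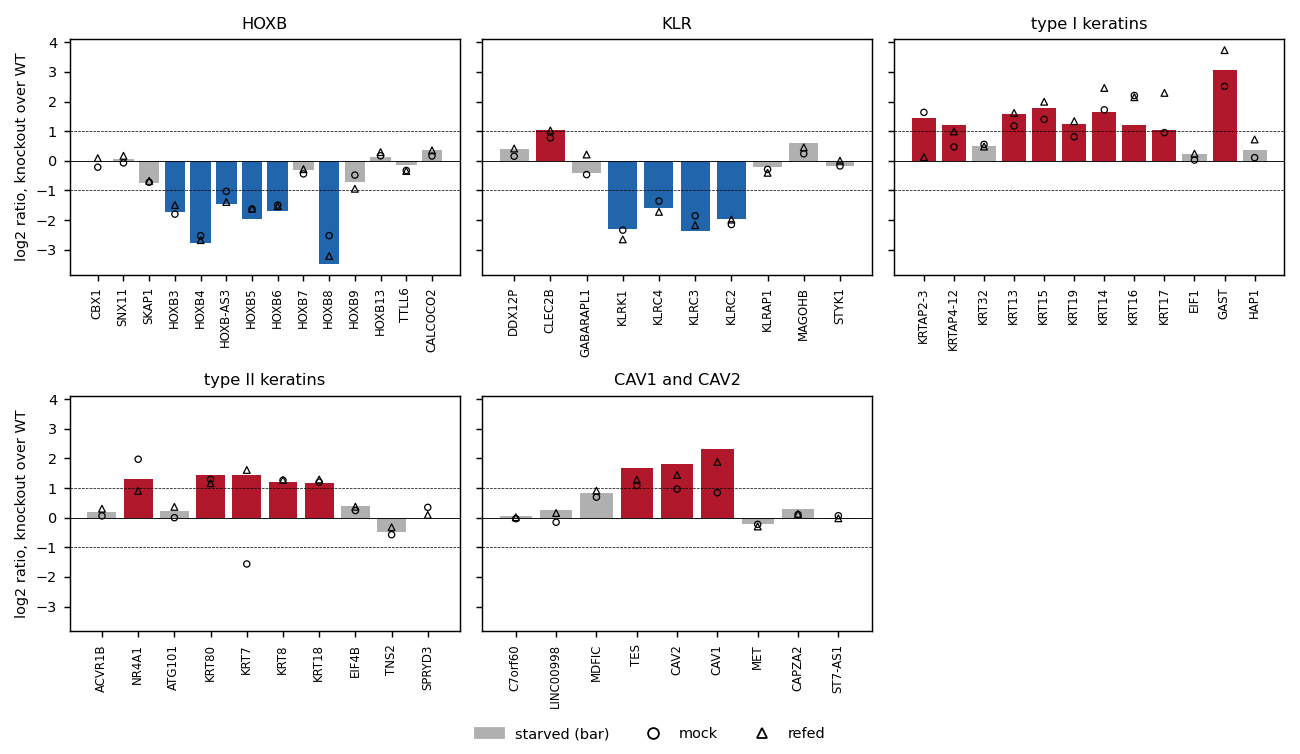
Log2 ratio of (FPKM + 1), KO over WT, for neighbouring compared genes in 5 regions, in chromosomal order. Bars are starved cells, red where 2-fold higher and blue where 2-fold lower, circles are mock and triangles refed cells, and dashed lines mark 2-fold. HOXB3 to HOXB6 and the KLR genes form blue blocks, and the keratins and TES to CAV1 form red blocks.

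The differences in starved cells were largely present in the other culture states, whose columns come from other samples. Of the 282 higher genes that were not short RNA 182 were also 2-fold higher in mock cells (64.5%) and 234 in refed cells (83.0%), where 2.35% and 3.61% of all genes were 2-fold higher. Of the 126 lower genes 86 were also 2-fold lower in mock (68.3%) and 103 in refed cells (81.7%), against 3.33% and 1.60% of all genes. Across 12461 genes Pearson's r of the log2 ratios was 0.79 between starved and mock and 0.89 between starved and refed cells, as a description over genes that are not independent. In neither other state were 28 of the 282 and 17 of the 126 genes 2-fold apart. A stricter rule asked for 5 FPKM or more and a log2 ratio within 0.5 of 0 in both other states. Among genes open to naming, which leaves out short RNA, LOC and read-through features, AQP3, a water and glycerol channel, alone met it. AQP3 was at 21.9 FPKM in WT starved and 9.64 FPKM in KO starved cells (-1.11), against 25.9 and 22.7 FPKM in mock (-0.18) and 20.3 and 15.3 FPKM in refed cells (-0.39). Its KO starved column was the lowest of the 6.

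At 5 FPKM or more, 81 genes were 2-fold higher in starved but not in mock cells, of which 58 were also 2-fold higher in refed cells. This choice fixed that the ratio of KO to WT was larger in starved than in mock cells. The counts that follow therefore describe the genes chosen, and the same counts over all genes were not made. In 37 of the 81 the WT level was lower in starved than in mock cells by 0.5 or more on the log2 scale, and in 20 the KO level was higher by 0.5 or more. MCAM, a cell adhesion molecule, was of the first kind, with mock, starved and refed levels of 40.3, 7.09 and 8.51 FPKM in WT and of 28.7, 27.1 and 32.2 FPKM in KO. MCAM is also expressed by endothelial cells, whose markers were high in WT mock as given above, and the part of that in the mock value was not tested. PLAT was of the second kind, at 6.92, 7.56 and 7.59 FPKM in the WT columns and at 8.39, 33.1 and 30 FPKM in KO. HMOX1 was at 14.8, 9.45 and 9.09 FPKM in WT and at 13.7, 24.3 and 23.5 FPKM in KO, and BAMBI at 5.46, 4.55 and 3.11 FPKM in WT and at 7.26, 14.5 and 15.2 FPKM in KO. CDKN1C differed more in refed than in starved cells, at 5.16 FPKM in WT refed and 61.9 FPKM in KO refed cells (3.35). Of 23 lower genes that were not 2-fold lower in mock cells, 14 were in refed cells, among them ERRFI1, an inhibitor of the EGF receptor (177 and 59.1 FPKM in starved cells, -1.57).

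**Figure D5:**
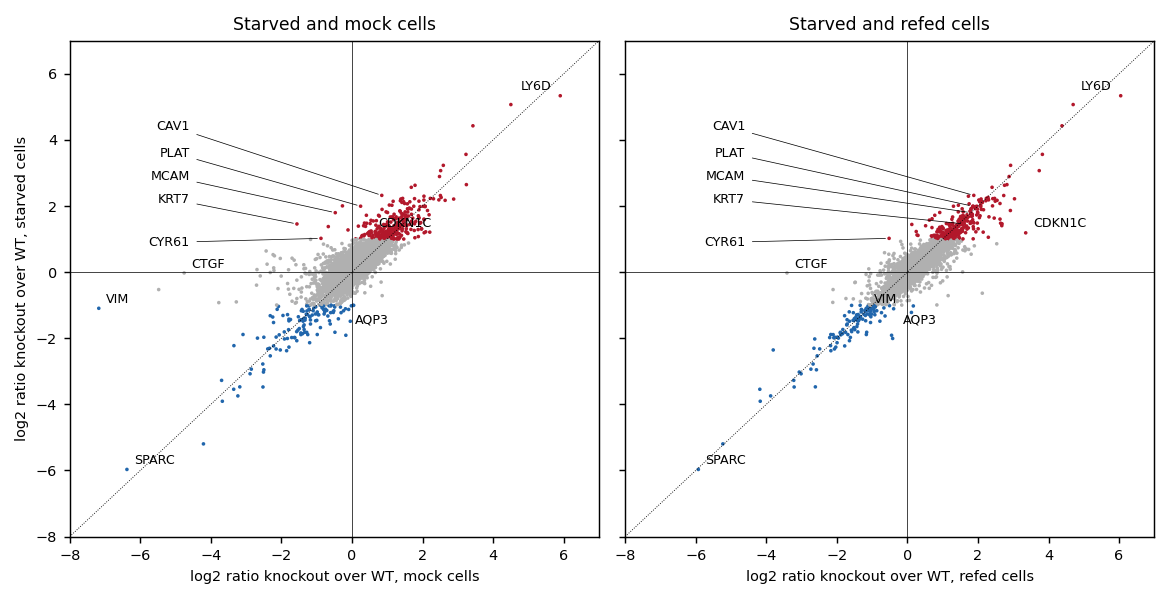
Log2 ratios of (FPKM + 1), KO over WT, of single genes in starved cells (y axis) against mock cells (left) and refed cells (right), short RNA left out. Red and blue points are 2-fold apart in starved cells, and the dotted line marks equal ratios. KRT7 is the 1 gene 2-fold apart in opposite directions, higher in starved and lower in mock cells, and CTGF lies near 0 in starved cells only.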

How the data were processed

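RNA sequencing of HCT116 cells was used. The deposited values are FPKM, 1 column per group, made by the authors. Per the submitters' processing notes FastQC, cutadapt and TopHat2 were used with build hg19, without versions. The program that computed FPKM and its annotation are not given in the sources used here. Values were taken as deposited, a pseudocount of 1 was added, and genes at 1 FPKM or more in either column were compared with Python 3.11.15, numpy 2.4.6 and pandas 2.3.3. The calculation was checked on simulated data. With 1 value per group, no test was made. Named genes were KDM3A, CTGF and CYR61, the 15 genes furthest apart in each direction with 5 FPKM or more in the higher column, genes listed at 0 in 1 column, genes apart in starved cells alone or in opposite directions, and up to 4 members of each of 43 lists. Other genes named, and the genes in chromosomal runs, were chosen after their values were seen. Members and lists were chosen with earlier results of these data known. Short RNA features, LOC symbols and read-through genes were not named, apart from the examples of short RNA given. Some genes that these rules would name are not reported here.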

Additional observations from a re-analysis of the deposited data

Results flagged for a closer look

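KRT7, a keratin of simple epithelium, was 2-fold apart in opposite directions in different culture states. Its log2 ratio, KO over WT, was 1.46 in starved cells (4.91 FPKM in WT and 15.2 FPKM in KO) and -1.56 in mock cells (25.2 and 7.89 FPKM). In refed cells it was 1.61. The difference between states was not tested, since each group has 1 value. In WT mock cells all 12 endothelial markers reached 1 FPKM, and in either starved column 2 of 12 did, and their part in the mock value of KRT7 was not tested.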

How the results depend on the processing

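The counts of 348 higher and 196 lower genes moved most with the pseudocount, to 533 and 295 with 0.1 and to 140 and 76 with 5. A filter at 5 FPKM left 122 lower genes, and leaving out short RNA features left 126. With upper-quartile rescaling the counts were 238 and 268. The median log2 ratio of 0.20 became 0.0345 with median-ratio rescaling, -0.00651 with upper-quartile rescaling and 0 with no filter. All 97 named genes that were 2-fold apart kept their direction in the 7 settings. This was largely fixed in advance, since pseudocounts and filters cannot change a sign and the rescalings shifted the median by far less than 2-fold. Of the 97 genes 61 stayed 2-fold apart in every setting they entered and 79 in every setting but the pseudocount of 5. No paired analysis was possible because the columns carry no replicate number, and for the same reason no replicate could be left out. Read depth is unknown, so differences near 1 FPKM have no known precision.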
